A study of Mus musculus with 18 samples.

Results

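The Serpina cluster on mouse chromosome 12 encodes secreted protease inhibitors and hormone carriers of the serpin family, and 10 of its genes were followed across 18 mouse livers. The members were the rows of the deposited count table with the symbols Serpina1a, Serpina1b, Serpina1c, Serpina1d, Serpina1e, Serpina3k, Serpina3m, Serpina3n, Serpina4-ps1 and Serpina6, which are 10 of 52636 gene IDs. All 10 members passed the filter on low counts and were among the 13958 genes tested.

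The livers fell into 6 groups of 3 biological replicates, all taken at ZT8, which is 8 hours after lights on. The H-WT and H-KO mice were 10 weeks old and carried Hnf4atm1.1Gonz, an allele of Hnf4a made for conditional deletion, with Albtm1(cre/ERT2)Mtz, which expresses a tamoxifen-activated Cre recombinase from the albumin gene and so acts in hepatocytes. The BH-WT and BH-KO mice were also 10 weeks old and carried, beside both of these, Arntltm1Weit, a conditional allele of the clock gene Arntl (Bmal1). The BH-HF-WT and BH-HF-KO mice were of the BH line, were 45 weeks old and had been on a high-fat diet for 35 weeks from 10 weeks of age. Mice of all 6 groups, WT included, received tamoxifen (10 mg/mL in corn oil, into the peritoneum) on 5 days running at 8 weeks of age. Since WT and KO mice of a setting were given identical strain names, the genetic difference between them is not known here.

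Serpins inhibit proteases by offering a flexible loop, the reactive centre loop, as bait. The protease cuts the loop, the serpin snaps into another shape, and the protease stays trapped. Hepatocytes make most of the serpins of blood plasma. The Serpina1 genes encode alpha-1-antitrypsin, the plasma inhibitor of neutrophil elastase, which humans make from a single gene and mice from a family of near-identical copies. The mouse Serpina3 genes are an expanded family related to the single human gene of alpha-1-antichymotrypsin. Serpina6 encodes corticosteroid-binding globulin, which carries glucocorticoids in blood and is not an inhibitor. HNF4A, a nuclear receptor, activates many genes of differentiated hepatocytes.

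Libraries held 6846471 to 9816124 counts, of which the 10 members together took 0.317% to 3.29%. Levels are given as CPM, the counts scaled to library size with TMM factors, and a count of 0 allows up to 0.264 to 0.48 CPM (3 counts, counting error only). The hepatocyte markers were all detected in all groups, with Alb, the albumin gene, at 71600 to 81700 CPM in H-WT. Hnf4a was at 581 to 889 CPM in H-WT and 556 to 658 CPM in H-KO, and whole-gene counts do not show whether an exon is missing. Arntl was at 0.421 to 0.799 CPM in BH-WT and 17.4 to 24.1 CPM in BH-KO, but at 0.885 to 2.54 CPM in the libraries labelled BH-HF-KO, close to their WT group (1.03 to 2 CPM). BH-KO replicate 1 stood apart from its group on the first principal component (-1.3 against 80.3 and 79, with H-WT at -22.7 to -20.1), and its Hnf4a level was 867 CPM against 500 and 495. H-WT replicate 3 had Xist, which silences an X chromosome in female cells, at 1080 CPM, while the other 17 libraries were at or below 3.9 CPM.

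The 5 Serpina1 genes are close copies, and they differ more in the loop that meets the protease than in the pooled rest of the coding sequence. Over the 1239 coding bases that all 5 share, any pair was 96.3% to 98.5% identical. Of these columns 86 differed in at least 1 copy, 15 of them within the 69-base stretch that starts at the hinge of the reactive centre loop (21.7% of its columns) and 71 in the other 1170 bases (6.07%). The stretch is printed from the GENCODE M21 transcripts, 5′ to 3′, with the columns that differ among the 5 copies in capitals. These letters can help to tell the copies apart in a read, and their effect on the bait was not tested.
Serpina1a: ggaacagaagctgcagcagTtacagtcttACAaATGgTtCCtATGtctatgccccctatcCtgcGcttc
Serpina1b: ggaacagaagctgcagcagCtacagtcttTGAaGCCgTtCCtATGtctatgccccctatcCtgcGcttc
Serpina1c: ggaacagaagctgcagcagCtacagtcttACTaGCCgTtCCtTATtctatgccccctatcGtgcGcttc
Serpina1d: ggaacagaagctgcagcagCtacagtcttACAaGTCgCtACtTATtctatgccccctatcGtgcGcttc
Serpina1e: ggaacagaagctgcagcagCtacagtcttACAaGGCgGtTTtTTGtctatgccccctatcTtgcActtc
Serpina1c and Serpina1d differed at 4 of the 69 bases, the smallest number of any pair, and Serpina1a and Serpina1e at 10, the largest. Across the whole coding sequence the closest pair was Serpina1a and Serpina1c, with 19 differences.

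The Serpina3 copies have drifted further apart. Serpina3k and Serpina3m were 92.0% identical in coding sequence, Serpina3m and Serpina3n 85.2%, and Serpina3k and Serpina3n 83.8%, whereas a Serpina1 gene matched a Serpina3 gene or Serpina6 at 60.3% to 64.3%. In the same loop stretch, 32 of 69 columns differed among the 3 genes, again shown in capitals.
Serpina3k: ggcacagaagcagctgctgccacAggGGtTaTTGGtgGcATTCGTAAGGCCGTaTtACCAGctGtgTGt
Serpina3m: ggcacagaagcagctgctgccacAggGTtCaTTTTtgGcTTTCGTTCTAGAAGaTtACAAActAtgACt
Serpina3n: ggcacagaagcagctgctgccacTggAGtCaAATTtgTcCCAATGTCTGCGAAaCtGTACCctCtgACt

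These identities set how well a count can be given to a single copy. Of all 50-base windows of its GENCODE M21 transcripts, Serpina1c had 25.8% that occur in no other gene, Serpina1a 42.4%, Serpina1d 49.1%, Serpina1e 65.4% and Serpina1b 70.5%. Serpina1a and Serpina1c shared 910 such windows with each other. For Serpina3m, Serpina3k and Serpina3n the unique share was 80.9%, 86% and 93.1%, and for Serpina4-ps1 and Serpina6 it was 100%. Serpina3k and Serpina3m also share 60 exon bases of annotation, and the Serpina1b gene span encloses Serpina1d without shared exon bases. The sources used here do not say how reads that fit several places were counted, so the values of single Serpina1 copies are uncertain, and their sum is given beside them.

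**Figure D1:**
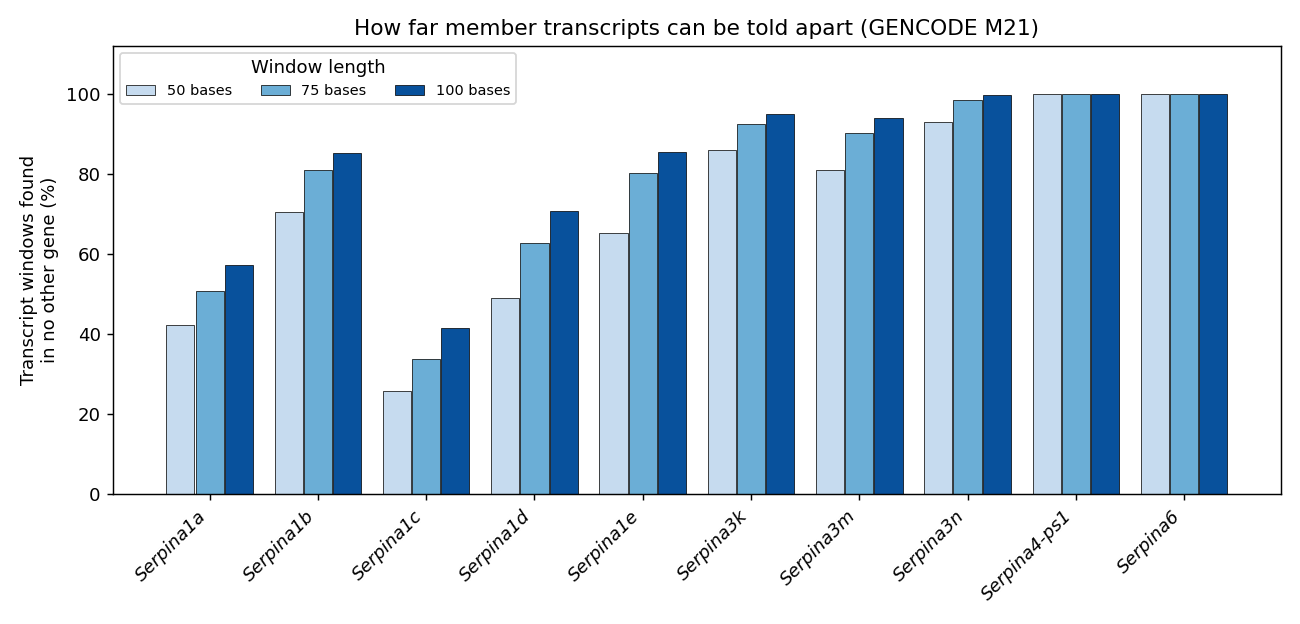
Share of transcript windows of 50, 75 and 100 bases (y axis, %) that occur in no other GENCODE M21 gene, for each member (x axis). At 50 bases Serpina1c has the lowest share, 25.8%, and Serpina4-ps1 and Serpina6 have 100%.

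In build mm10 (GRCm38, GENCODE M21) all 10 members lie on chromosome 12. Serpina6 (ENSMUSG00000060807) spans 103646630 to 103657212 on the minus strand. The Serpina1 genes follow, also on the minus strand, from Serpina1b (ENSMUSG00000071178, 103728156 to 103830373) to Serpina1e (ENSMUSG00000072849, 103946931 to 103958975). Serpina4-ps1 (ENSMUSG00000092075, 104080649 to 104086724) lies on the plus strand and is annotated as an unprocessed pseudogene. The Serpina3 genes close the row on the plus strand, from Serpina3k (ENSMUSG00000058207, 104338486 to 104346144) to Serpina3n (ENSMUSG00000021091, 104406729 to 104414329).

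Most of the cluster was lower in H-KO livers. Against H-WT, 6 of the 10 members fell and none rose (edgeR quasi-likelihood test, adjusted p under 0.05), where 34.9% of all tested genes passed (15.8% higher and 19.1% lower). The members that fell were Serpina1b, Serpina1d, Serpina1e, Serpina3k, Serpina3m and Serpina4-ps1. The median log2 fold change of the 10 was -2.08, against 0 for all tested genes. For 8 members every H-KO library lay below every H-WT library, which held for 25.9% of all genes, and no member lay above without overlap (26.1% of all genes). Together the members made up 1.05% ± 0.0877 of an H-WT library and 0.337% ± 0.02 of an H-KO library (SD, n = 3 each, exact two-sided permutation p = 0.1, the smallest that 3 against 3 allows).

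**Figure D2:**
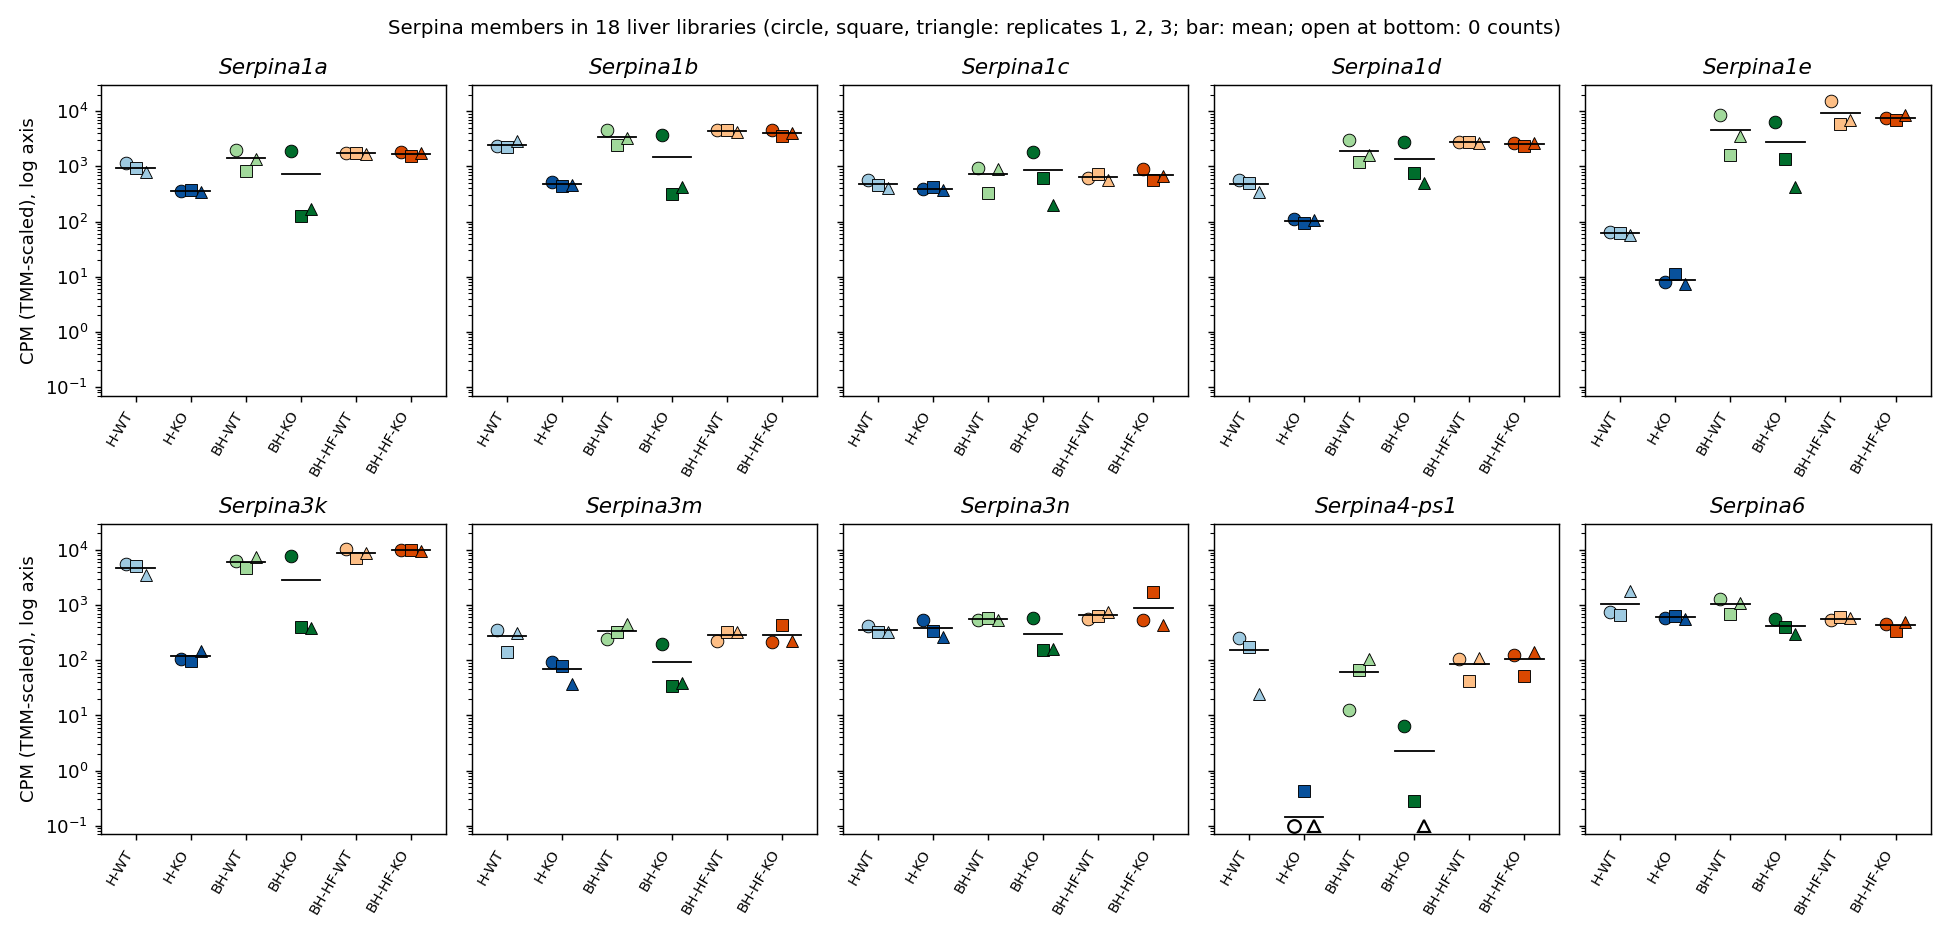
CPM of each member in every library (y axis, log scale) for the 6 groups (x axis), with circle, square and triangle for replicates 1, 2 and 3 and a bar at the group mean. Serpina3k sits at 98.4 to 150 CPM in H-KO and 3490 to 5660 CPM in H-WT, and in BH-KO replicate 1 stays at 7850 CPM while the other 2 libraries are at 388 and 407 CPM.

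Serpina3k, also described as contrapsin, fell furthest of the abundant members. It was at 5660, 5160 and 3490 CPM in the H-WT livers and at 107, 98.4 and 150 CPM in the H-KO livers. The ranges were far apart, and the fold change was 40.2 (log2 fold change -5.33 ± 0.95 SE, edgeR adjusted p = 0.000757). Its relative Serpina3m was at 361, 142 and 317 CPM in H-WT and 93.8, 79 and 37.3 CPM in H-KO, a 3.9-fold fall (log2 -1.96 ± 0.62 SE, edgeR adjusted p = 0.0252). Serpina3m no longer passed without H-WT replicate 1, H-WT replicate 3, H-KO replicate 2 or H-KO replicate 3 (without H-WT replicate 3, log2 -1.85, adjusted p = 0.0644).

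Serpina3n, the member of the family best known as an acute phase gene, did not pass. It was at 419, 331 and 324 CPM in H-WT and 537, 339 and 267 CPM in H-KO, and the groups overlapped (log2 0.09 ± 0.52 SE, edgeR adjusted p = 0.916).

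Serpina4-ps1 was nearly lost. Its counts summed to 3522 over the 3 H-WT livers and to 4 over the 3 H-KO livers, of which 2 had none. In CPM these were 255, 176 and 24.2 against 0, 0.432 and 0, so that the groups did not overlap, although the WT values themselves spanned 10.5-fold. The lowest WT value, 24.2 CPM, was that of replicate 3. The fitted log2 fold change was -9.97 ± 1.68 SE (edgeR adjusted p = 0.000618), and its size rests on those 4 counts.

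The Serpina1 copies fell by unequal amounts. Serpina1b, the most abundant copy per kilobase of exon in H-WT (1030 CPM per kb), was at 2340, 2270 and 2830 CPM in H-WT and 514, 449 and 455 CPM in H-KO, a 5.24-fold fall (log2 -2.39 ± 0.66 SE, edgeR adjusted p = 0.0119). Serpina1d was at 567, 509 and 348 CPM in H-WT and 111, 95.4 and 106 CPM in H-KO, a 4.56-fold fall (log2 -2.19 ± 0.49 SE, edgeR adjusted p = 0.0031). Serpina1e was at 65.2, 61.7 and 57.9 CPM in H-WT and 7.93, 11.1 and 7.31 CPM in H-KO, a 7-fold fall (log2 -2.81 ± 0.81 SE, edgeR adjusted p = 0.0146). In these 3 copies the H-WT and H-KO values did not overlap.

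The other 2 copies did not pass. Serpina1a was at 1130, 923 and 798 CPM in H-WT and 365, 374 and 348 CPM in H-KO, also without overlap (log2 -1.39 ± 0.72 SE, edgeR adjusted p = 0.149). Serpina1c was at 566, 464 and 400 CPM in H-WT and 384, 419 and 379 CPM in H-KO, and its ranges overlapped (log2 -0.28 ± 0.55 SE, edgeR adjusted p = 0.741). The standard error of Serpina1a comes from all 6 groups at once, and BH-KO replicate 1 widened it. Without that library the same difference had an SE of 0.24 and an adjusted p of 0.000186, and 8 of the 10 members fell, Serpina1a and Serpina6 being the 2 added (39.1% of 14415 genes passed, 18.2% higher and 20.9% lower). Without H-KO replicate 3 the count was 4, Serpina1e and Serpina3m being lost, where 27.1% of all tested genes passed. Serpina1e was also lost without H-KO replicate 1.

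Serpina6, the glucocorticoid carrier, was at 750, 652 and 1800 CPM in H-WT and 596, 646 and 557 CPM in H-KO. The H-WT value of 1800 CPM was that of replicate 3, the library with Xist, and the other 2 lay just above the H-KO range. The difference did not pass (log2 -0.83 ± 0.33 SE, edgeR adjusted p = 0.0636), and without H-WT replicate 3 it was -0.23 (adjusted p = 0.552).

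Summing the Serpina1 copies within each library sets aside how reads were divided among the 5 copies, but not reads that were dropped or that also fit Gm8893, a gene outside the sum that shares windows with Serpina1a and Serpina1c. The sum was 4224 to 4667 CPM in H-WT and 1295 to 1381 CPM in H-KO, a 3.31-fold fall (log2 -1.73 ± 0.61 SE, edgeR adjusted p = 0.0368). Leaving out any 1 of the 6 H libraries moved the adjusted p above the threshold, to at most 0.0955, with the log2 fold change between -1.77 and -1.70. The make-up of the sum differed too. Serpina1b made up 55.9% ± 7.15 of it in H-WT and 35.2% ± 1.96 in H-KO, and Serpina1c 10.7% ± 1.57 and 29.4% ± 1.65 (SD, n = 3 each, exact permutation p = 0.1 for both, the smallest possible, and 0.2 after adjustment over 42 such tests).

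The same comparison in the BH line split along a single library. With all 3 BH-KO livers, 3 of 10 members fell against BH-WT and none rose, where 28.6% of tested genes passed (14.3% higher and 14.3% lower). These were Serpina3m, Serpina4-ps1 and Serpina6, and their ranges were also the 3 that did not overlap (16.8% of all genes were lower without overlap and 18% higher). The median log2 fold change of the 10 was -1.02, against 0.03 for all tested genes. Without BH-KO replicate 1, 9 of 10 members fell, with a median of -2.79, where 41% of 14415 genes passed (19.5% higher and 21.6% lower). Without BH-KO replicate 3 the count was 1, without BH-KO replicate 2, BH-WT replicate 2 or BH-WT replicate 3 it was 2, and with only the 6 compared libraries in the fit it was 0 (edgeR). Fewer of all tested genes passed in these settings too, 16.9%, 16.3%, 19.8%, 20.4% and 8.67% in that order.

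Serpina3k showed this most. It was at 6420, 4680 and 7430 CPM in BH-WT, and at 7850, 407 and 388 CPM in BH-KO. Replicate 1 lay above all BH-WT livers and the other 2 far below them. Over all 3 the log2 fold change was -1.10 ± 0.80 SE (edgeR adjusted p = 0.314), and without replicate 1 it was -3.96 ± 0.29 SE (adjusted p = 3.21e-08). Serpina1a and Serpina1b followed the same division. Serpina1a was at 2000, 818 and 1390 CPM in BH-WT and 1900, 128 and 172 CPM in BH-KO (log2 -0.94, adjusted p = 0.335, and -3.23 without replicate 1). Serpina1b was at 4650, 2400 and 3240 CPM in BH-WT and 3750, 311 and 429 CPM in BH-KO (log2 -1.20, adjusted p = 0.17, and -3.22 without replicate 1).

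Serpina1d and Serpina1e varied widely inside both BH groups. Serpina1d was at 3020, 1190 and 1580 CPM in BH-WT and 2790, 772 and 501 CPM in BH-KO. Serpina1e was at 8630, 1590 and 3570 CPM in BH-WT and 6490, 1340 and 425 CPM in BH-KO. In each group replicate 1 was the highest of both genes, and the groups overlapped unless BH-KO replicate 1 was left out. The log2 fold changes were then -1.60 (adjusted p = 0.000959) and -2.38 (adjusted p = 0.0118), and -0.51 and -0.74 with it. Serpina1c was at 919, 335 and 913 CPM in BH-WT and 1800, 626 and 198 CPM in BH-KO. Its direction turned with the library, from 0.28 ± 0.55 SE to -0.81 (adjusted p = 0.161), and it was the 1 member that did not pass without replicate 1.

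The 3 members that passed with all libraries were below every BH-WT liver also in BH-KO replicate 1. For Serpina3m and Serpina4-ps1 that library still lay well above the other 2 BH-KO livers. Serpina6 was at 1290, 705 and 1090 CPM in BH-WT and 571, 396 and 305 CPM in BH-KO, a 2.43-fold fall (log2 -1.28 ± 0.34 SE, edgeR adjusted p = 0.0111). Serpina3m was at 248, 328 and 449 CPM in BH-WT and 201, 34.9 and 39.4 CPM in BH-KO, a 3.74-fold fall (log2 -1.90 ± 0.62 SE, edgeR adjusted p = 0.0349). Serpina4-ps1 was at 12.8, 67.8 and 104 CPM in BH-WT and 6.39, 0.285 and 0 CPM in BH-KO, 1294 counts against 46 (log2 -5.07 ± 1.23 SE, edgeR adjusted p = 0.00892). On leaving out single libraries the edgeR adjusted p reached 0.122 for Serpina3m, 0.0568 for Serpina6 and 0.0464 for Serpina4-ps1. Serpina3n was at 542, 577 and 543 CPM in BH-WT, a narrow band, and at 576, 154 and 161 CPM in BH-KO. It did not pass with all libraries (log2 -0.90, adjusted p = 0.211) and fell without replicate 1 (-1.82, adjusted p = 0.0104).

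**Figure D3:**
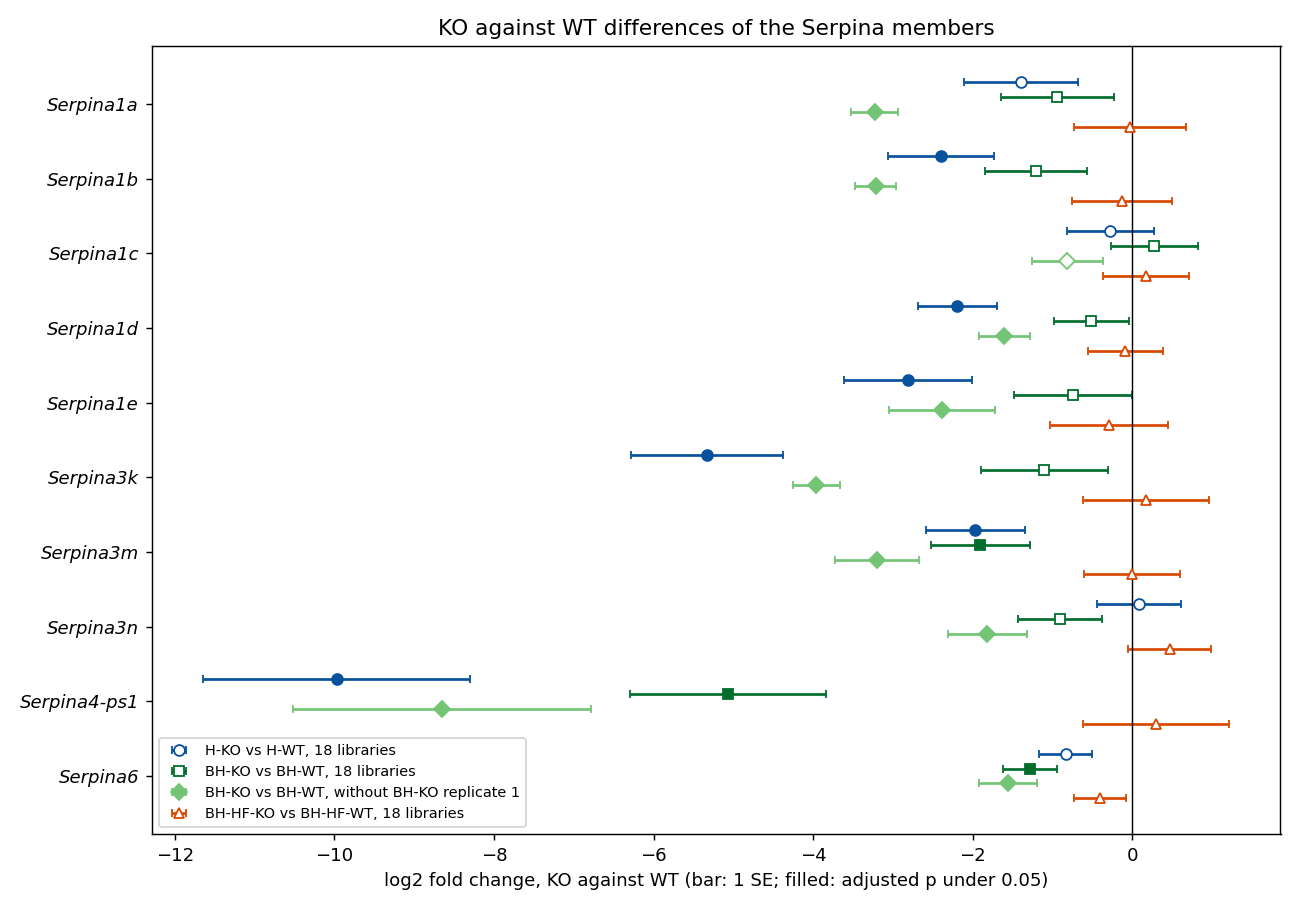
Log2 fold changes of KO against WT (x axis, bars 1 SE) for each member (y axis) in the H, BH and BH-HF settings, and in BH without BH-KO replicate 1, with filled symbols for adjusted p under 0.05. Serpina3k is at -5.33 in H, at -1.10 in BH, at -3.96 in BH without that library and at 0.18 in BH-HF.

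In the livers on high-fat diet no difference between KO and WT was detected. None of the 10 members passed in edgeR (0% of all tested genes did), none had an unadjusted p under 0.05, against 490 of 13958 genes, and DESeq2 and limma-voom passed none either. The median log2 fold change was -0.01. Serpina3k was at 10300, 7200 and 8920 CPM in BH-HF-WT and 10000, 10200 and 9730 CPM in BH-HF-KO. The Serpina1 sum was at 15720 to 25050 CPM in BH-HF-WT and 14900 to 17750 CPM in BH-HF-KO (log2 -0.18 ± 0.59 SE, edgeR adjusted p = 1). Only Serpina6 had ranges that did not overlap (530, 605 and 576 CPM against 463, 347 and 487 CPM), as 4.69% of all genes did in the lower and 5.67% in the higher direction. The Arntl level of the libraries labelled BH-HF-KO, given above, applies to all of these values.

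Serpina3n had a single high value in these livers. It was at 551, 646 and 762 CPM in BH-HF-WT and at 537, 1750 and 429 CPM in BH-HF-KO. Replicate 2 was the highest of all 18 libraries for this gene and spread the group 4.07-fold. The same library held the highest levels of acute phase genes, with Saa1 at 8150 CPM and Saa2 at 8700 CPM, against 106 and 191 CPM and 55.8 and 190 CPM in the other 2 BH-HF-KO livers. The 30 genes of an acute phase list summed to 111000 CPM in it and to 28400 to 88800 CPM in the other 17 libraries. Their part in the Serpina3n value was not tested.

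Whether the KO difference itself differed between settings was tested by interaction contrasts in the same fit. Between the BH and H lines, 1 of 10 members passed, Serpina3k, where 6.06% of all tested genes did (3.76% higher and 2.3% lower). Its KO difference was 4.23 ± 1.16 SE less negative on the log2 scale in BH (edgeR adjusted p = 0.0457), and 1.38 ± 0.33 SE without BH-KO replicate 1 (adjusted p = 0.0177). Leaving out any 1 of the 15 libraries outside BH-KO ended the call, with adjusted p of at most 0.119. Without BH-KO replicate 1, Serpina1a also passed, with a more negative difference in BH (-1.83, adjusted p = 0.00603), where 8.65% of genes passed (4.93% higher and 3.72% lower). Between the BH-HF and BH settings none passed in edgeR with all libraries, where 6.1% of genes did (3.45% higher and 2.65% lower). DESeq2 and limma-voom passed none either, where 9.43% and 6.83% of genes passed. In edgeR 2 members had an unadjusted p under 0.05, as did 3225 of 13958 genes. Without BH-KO replicate 1, 7 of 10 members passed, all with a less negative difference in BH-HF, where 21.1% of genes passed (12.2% higher and 8.92% lower). Among these Serpina3k differed by 4.14 (adjusted p = 3.34e-07) and Serpina1a by 3.21 (adjusted p = 8.57e-06).

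The lines differed from each other in which Serpina1 copy they used. Serpina1e, at 57.9 to 65.2 CPM in H-WT, was at 1590 to 8630 CPM in BH-WT, a 74.6-fold difference (log2 6.22 ± 0.93 SE, edgeR adjusted p = 0.0139). It was the 1 member of 10 that passed between the WT groups, where 0.165% of all tested genes did (0.0573% higher and 0.107% lower). Leaving out any 1 of the 3 H-WT livers ended the call, with adjusted p of at most 0.0907 and log2 fold changes of at least 6.18. Without BH-WT replicate 1, the highest of its group, the log2 fold change was 5.39 (adjusted p = 0.0418). Serpina1d was also higher in all BH-WT than in all H-WT livers (log2 2.02 ± 0.49 SE, edgeR adjusted p = 0.16), and it passed without BH-KO replicate 1 (adjusted p = 0.00388), where 0.395% of genes did (0.153% higher and 0.243% lower). The third member without overlap was Serpina3n, with a log2 fold change of 0.63 (adjusted p = 0.768), where 7.62% of all genes were higher and 7.09% lower without overlap.

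In all 12 BH and BH-HF libraries Serpina1e made up 24.7% to 61.2% of the Serpina1 sum, and in all 6 H libraries 0.564% to 1.46%. It was the most abundant of the 10 members per kilobase of exon in BH-HF-WT, at 5790 CPM per kb against 4280 for Serpina3k, and Serpina3k was the most abundant in H-WT, at 2320 CPM per kb against 38.1 for Serpina1e. In BH-HF-WT the spread of Serpina1e was wide, with 15300, 5960 and 6830 CPM, so that its order with Serpina3k does not exceed the spread. The strain labels of the lines differ beyond the Arntl allele in the donor strain they name with it, so allele, background and line cannot be told apart here.

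**Figure D4:**
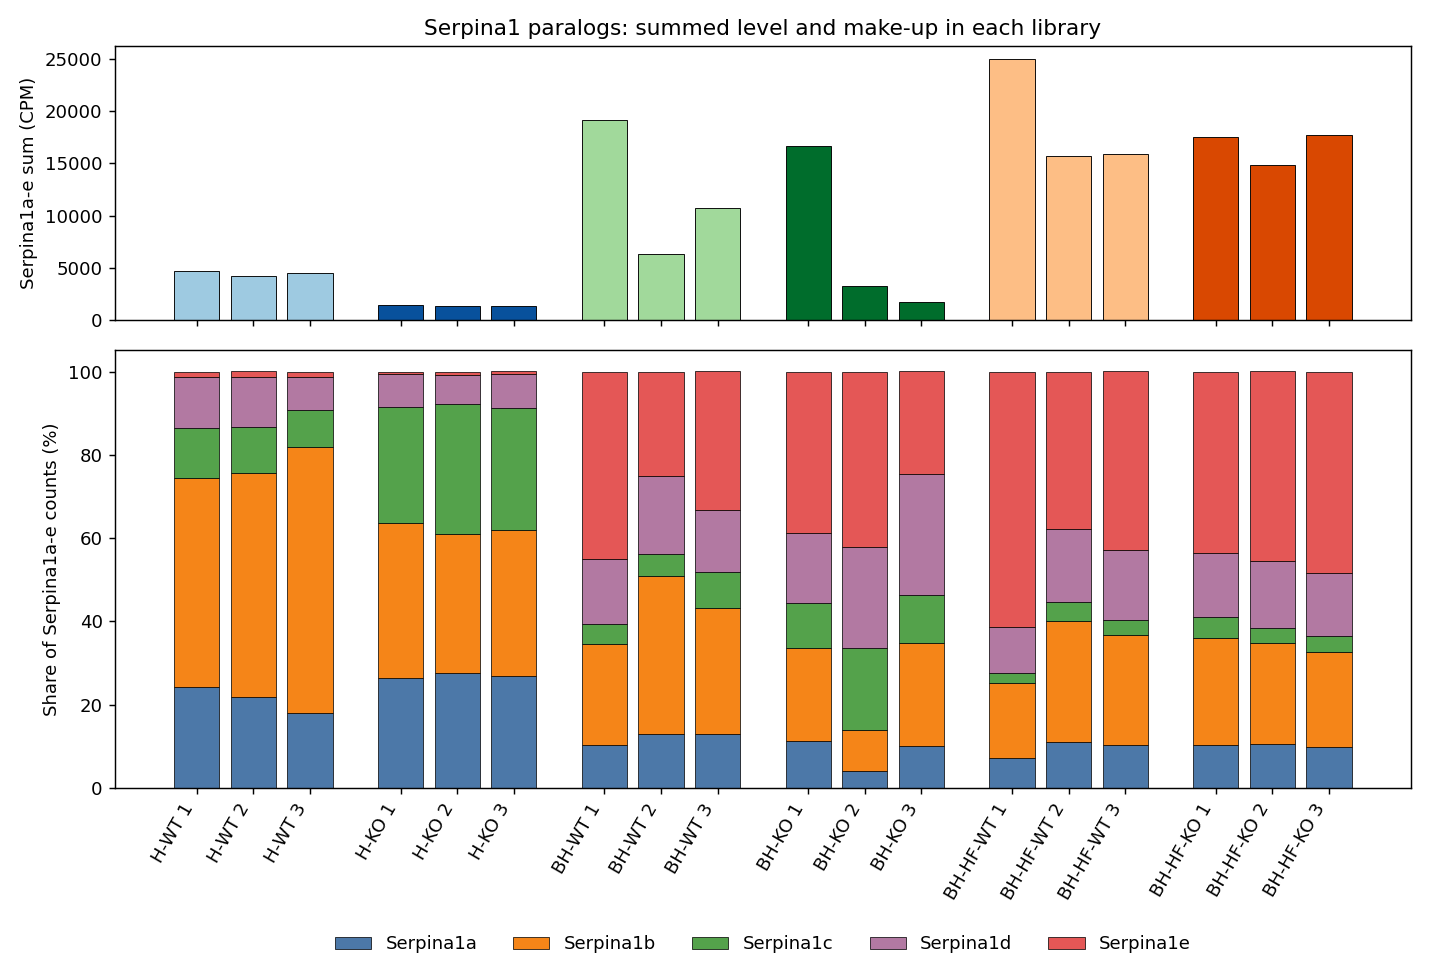
Summed CPM of Serpina1a to Serpina1e (upper y axis) and share of each copy in the sum (lower y axis, %) in each of the 18 libraries (x axis, grouped). Serpina1e is at most 1.46% of the sum in the H libraries and at least 24.7% in the BH and BH-HF libraries, and Serpina1c is larger in H-KO (27.8% to 31.1%) than in H-WT (9.02% to 12.1%).

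Between the KO groups of the lines more members passed than between the WT groups. Against H-KO, 3 of 10 members were higher in BH-KO (16.4% of all tested genes passed, 10.1% higher and 6.3% lower), namely Serpina1e (log2 8.29 ± 1.02 SE, edgeR adjusted p = 0.000136), Serpina1d (3.70 ± 0.52 SE, 0.000323) and Serpina3k (4.60 ± 0.92 SE, 0.00425). Without BH-KO replicate 1 these were 6.65, 2.62 and 1.75 and still passed, and Serpina1a was lower in BH-KO (-1.27, adjusted p = 0.00516), where 14.3% of genes passed (8.46% higher and 5.81% lower). The same 3 members were higher without overlap, as were 18.8% of all genes, while 17.3% were lower. Age and diet, which change together between BH-WT and BH-HF-WT, moved no member past the threshold in edgeR, DESeq2 or limma-voom, where 7% of genes passed in edgeR (2.79% higher and 4.21% lower). Serpina6 alone had an unadjusted edgeR p under 0.05 (log2 -0.85, adjusted p = 0.127). Its ranges, 705 to 1290 CPM and 530 to 605 CPM, did not overlap, as 15.3% of all genes did in that direction and 15.7% in the other. It passed without H-WT replicate 3, where 7.26% of genes did.

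The promoters of the Serpina1 copies were compared because the copies moved by different amounts. The RefSeq table (GRCm38.p6) held 6 of the 10 promoters, those of the 5 Serpina1 genes and Serpina3n, and those of Serpina3k, Serpina3m, Serpina4-ps1 and Serpina6 were not analysed here. A core of 91 bases that ends 1 to 63 bases before the RefSeq start of each copy had 10 columns that differ among the 5, in capitals below. All 5 lie on the minus strand of chromosome 12 and are printed 5′ to 3′, Serpina1a at chr12:103863625-103863715, Serpina1b at chr12:103738200-103738290, Serpina1c at chr12:103904962-103905052, Serpina1d at chr12:103773634-103773724 and Serpina1e at chr12:103956960-103957050.
Serpina1a: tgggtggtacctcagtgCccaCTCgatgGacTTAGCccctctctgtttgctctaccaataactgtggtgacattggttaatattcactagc
Serpina1b: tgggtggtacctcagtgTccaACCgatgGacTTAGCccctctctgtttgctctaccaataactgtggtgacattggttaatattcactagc
Serpina1c: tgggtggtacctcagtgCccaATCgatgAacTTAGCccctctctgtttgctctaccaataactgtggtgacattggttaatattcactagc
Serpina1d: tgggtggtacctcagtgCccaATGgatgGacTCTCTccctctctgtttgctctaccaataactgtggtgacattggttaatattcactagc
Serpina1e: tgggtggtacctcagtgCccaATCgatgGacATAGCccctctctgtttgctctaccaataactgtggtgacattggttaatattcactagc
All 10 differing columns lie in the first part of the core, and the rest is the same in all 5 copies. Serpina1d was the most distant, with 6 or 7 differences from each other copy, and the others differed from each other at 2 or 3 bases. Serpina1c and Serpina1e differed at 2 of 91 bases, although Serpina1e was the copy that differed most between the lines.

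Letter patterns were searched on both strands of the 300-base RefSeq promoters, and a match is a description only. The pattern TGGACTNNG, part of the letters bound by HNF4A, was in Serpina1a and Serpina1b and in 4.71% of all 32851 promoters. It was not found in Serpina1c, Serpina1d or Serpina1e, each of which has a differing base within it. Of the copies without it Serpina1d and Serpina1e fell in H-KO and Serpina1c did not pass. Of the 2 with it Serpina1b fell, and Serpina1a was lower without overlap but did not pass with all libraries. The part of the pattern in these differences was not tested. Neither CACGTG, the E-box bound by the clock factors (7.15% of all promoters), nor TTCNNNGAA, the STAT element (8.3%), was in any of the 6 promoters. The patterns were chosen after the sequences had been seen.

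Other genes of the same pathways were read from fixed lists in the same fits. Beside the list and marker counts below, 34.9% of all tested genes passed in H-KO (15.8% higher and 19.1% lower). In BH-KO 28.6% did (14.3% higher and 14.3% lower). At an unadjusted p under 0.05 in edgeR there were 6188 of 13958 genes in H-KO, 5747 in BH-KO and 490 in BH-HF-KO. No list was tested as a set against these shares. Of 9 other tested Serpina genes, 1 rose and 2 fell in H-KO, and likewise 1 and 2 in BH-KO. The gene that rose in both was Serpina7, the thyroxine-binding globulin, from 131 ± 38.5 to 1310 ± 96.6 CPM in the H line (SD, n = 3, log2 3.32 ± 0.56 SE, edgeR adjusted p = 0.000572). In the BH line it went from 92 ± 50.7 to 800 ± 329 CPM (log2 3.12 ± 0.56 SE, edgeR adjusted p = 0.0013), with BH-KO replicate 1 at 461 CPM above all BH-WT livers. Serpina7 is on another chromosome, and its direction was opposite to that of the members that fell.

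Of 27 other secreted protease inhibitors, 4 rose and 7 fell in H-KO, and in BH-KO 1 rose, with 4 at an unadjusted p under 0.05 in edgeR. Serpinf1, which encodes pigment epithelium-derived factor, went from 687 to 62.6 CPM in the H line (log2 -3.46 ± 0.73 SE, edgeR adjusted p = 0.00243), and Tfpi2, an inhibitor of the Kunitz type, from 55.5 to 2.67 CPM (-4.37, 0.00117). Itih3 and Itih2, heavy chains of the inter-alpha-trypsin inhibitors, rose by 1.67 and 0.88 on the log2 scale, and Itih2 was the 1 that rose in BH-KO (0.98, adjusted p = 0.00129). Of 6 tested target proteases, 4 fell in H-KO, and in BH-KO none passed in edgeR, with 2 at an unadjusted p under 0.05. The coagulation protease gene F11 and the plasma kallikrein gene Klkb1 fell by 2.69 and 1.45 on the log2 scale in H-KO.

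Of 30 acute phase genes, 3 rose and 4 fell in H-KO, and 1 rose and 3 fell in BH-KO. Crp and Saa4 fell in H-KO (log2 -2.59 and -3.18), while Orm3, an orosomucoid gene, and Il1rn, the interleukin 1 receptor antagonist, rose (3.20 and 1.92). Cebpa, which encodes an activator of many hepatocyte genes, fell in H-KO from 390 to 133 CPM (log2 -1.56, edgeR adjusted p = 2.98e-06) and in BH-KO from 401 to 87.1 CPM (log2 -2.20, edgeR adjusted p = 7.26e-08).

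Of 13 genes of glucocorticoid handling and response, 2 rose and 7 fell in H-KO, and 3 rose and 3 fell in BH-KO. A link of these genes to Serpina6, whose product carries the hormone, was not tested. Sgk1 and Zbtb16, both known glucocorticoid targets, rose in both (log2 3.55 and 1.96 in H-KO, 2.61 and 3.07 in BH-KO), and Tsc22d3, which encodes GILZ, fell in H-KO (-1.49, adjusted p = 0.00848) and rose in BH-KO (1.15, adjusted p = 0.0363). Of 21 growth hormone and sex-biased genes, 7 fell in H-KO, and 1 rose and 2 fell in BH-KO. Elovl3, a fatty acid elongase gene of male liver, fell in H-KO (-5.49, adjusted p = 0.0401) and was the gene that rose in BH-KO (4.66, adjusted p = 0.0301, with a BH-KO mean of 59.6 ± 96.6 CPM). Of 24 genes of the secretory route, 6 rose and 3 fell in H-KO, and 1 rose and 4 fell in BH-KO. In BH-HF-KO no gene of these lists passed in edgeR, and at an unadjusted p under 0.05 there were 4 acute phase genes, 1 glucocorticoid gene and 1 gene of the secretory route.

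Levels of some cell type markers differed between these groups. The 8 hepatocyte markers summed to 20900 to 24000 CPM in H-KO against 93500 to 105000 CPM in H-WT, to 26900 to 70000 against 94300 to 121000 CPM in BH, and to 60100 to 72700 against 103000 to 126000 CPM in BH-HF. The BH-HF gap lay in Alb (35000 ± 5860 against 79100 ± 10300 CPM, SD, n = 3, edgeR adjusted p = 1), and the other 7 markers had log2 fold changes of -0.33 (Tat) to 0.14 (Trf) there. Alb is also the gene from which the Cre recombinase of these mice is expressed, and the part of that allele in the Alb values was not tested. Of the 8 markers, 6 fell in H-KO, while Apoa1 and Cps1 did not pass. In BH-KO 1 rose (Apoa1) and 1 fell (Alb). Cholangiocyte markers summed to 137 to 202 CPM in H-KO and 50.5 to 75.1 CPM in H-WT, with 4 of 6 tested higher, and 3 of 6 were higher in BH-KO (135 to 379 against 55.9 to 119 CPM). The BH-KO sum was mostly Spp1 (184 against 35.1 CPM) and Sox9 (50.4 against 3.63 CPM), while Krt7, Krt19 and Epcam did not pass and had log2 values of -1.66, -1.59 and -1.08, and the median of the list was -0.06. Macrophage and Kupffer cell markers fell in BH-KO, 9 of 12, from 306 to 1490 CPM to 67.6 to 375 CPM, and none passed in H-KO in edgeR, adjusted or not (179 to 278 against 82.2 to 605 CPM). Of stellate cell markers 2 of 10 fell in each of H-KO and BH-KO, and of endothelial markers 2 of 8 fell in BH-KO. No neutrophil or lymphocyte marker passed in edgeR. At an unadjusted p under 0.05 there were 2 and 1 in BH-KO, 0 in H-KO, and 1 neutrophil marker (Ngp) in BH-HF-KO. Ly6g was at 0 in all H-WT, H-KO, BH-WT and BH-HF-KO livers. In bulk liver, fewer hepatocytes and less RNA per hepatocyte cannot be told apart, and the part of cell composition in the Serpina values was not tested.

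Across the 18 libraries the members did not all vary together. Pearson correlations of log2 CPM, given as descriptions over libraries that share groups and scaling, were 0.97 for Serpina1a with Serpina1b, 0.97 for Serpina1d with Serpina1e and 0.95 for Serpina1b with Serpina3k. Serpina6 was between -0.16 and 0.44 with every other member. The genes outside the family most like each member were Ugt2b1 for Serpina3k (r = 0.989), Lrpprc for Serpina1b (0.984), C1s1 for Serpina1a (0.962) and Fabp1 for Serpina4-ps1 (0.959). Serpina1d and Serpina1e had the same most similar gene, Deptor, which encodes an inhibitor of mTOR (0.97 and 0.946). Deptor was at 191 to 215 CPM in H-KO, 332 to 366 CPM in H-WT and 324 to 591 CPM in the BH and BH-HF livers. The most similar genes were Tfr2 for Serpina3m (0.946), Prg4 for Serpina3n (0.936), Chmp7 for Serpina6 (0.905) and Zfp944 for Serpina1c (0.873, the lowest of these).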

How the data were processed

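Liver RNA of 18 mice (6 groups of 3, placed by label) was sequenced. The authors deposited raw read counts per gene, whole numbers without normalization, per the file headers and values. Alignment used STAR 2.6 and the mm10 build, per the submitters' processing notes. The sources used here do not name the counter, its annotation, its strand setting or how it treated reads that fit several places. All 18 columns were used.

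The tests were run in R 4.3.3 on these counts with edgeR 4.0.16, TMM factors (0.83 to 1.38), filterByExpr by group (minimum count 10), 1 mean per group over all 18 libraries (12 residual degrees of freedom) and the two-sided robust quasi-likelihood F-test in 8 contrasts. P-values were adjusted by Benjamini-Hochberg over all 13958 tested genes, and a gene passed under 0.05. SE is the log2 fold change over the root of F. The Serpina1 rows were also summed and the table refitted. Replicates measure the spread between livers. Shares were compared by exact permutation. Likeness is Pearson's r of log2 CPM (prior count 2). Alternatives were DESeq2 1.42.0, limma-voom (limma 3.58.1), other scalings and filters, the compared groups alone, a replicate block and leaving out each library. Leaving out BH-KO 1 with H-WT 3 was added after seeing the data. The test was checked on simulated counts with the same dispersion for all genes and no outlying library. That check does not cover a library like BH-KO replicate 1.

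The members, lists and rules were chosen with earlier results of these data known. Every member is named, and of each list up to 2 rises and 2 falls that passed, with 5 CPM in a group. Genes outside that rule were named after their values were seen. Among them were Saa1, Saa2, Deptor levels and, in H-KO, Cebpa, Apoa1 and Cps1. Others were Tsc22d3, Krt7, Krt19 and Epcam in BH-KO, and Tat and Trf in BH-HF. Sequences come from GENCODE M21 and RefSeq (GRCm38.p6). Some list genes and 1 motif are not reported here.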

Additional observations from a re-analysis of the deposited data

Results flagged for a closer look

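The KO against WT difference of Serpina3k differed between the BH and H lines by 4.23 on the log2 scale (interaction contrast, edgeR adjusted p = 0.0457). H-KO livers were at 98.4 to 150 CPM in all 3 libraries. BH-KO livers were at 7850, 407 and 388 CPM, and without the first of these the difference was 1.38 (adjusted p = 0.0177). Leaving out any 1 of the 15 libraries outside BH-KO ended the call, as did limma-voom (adjusted p = 0.148), no filter on low counts (0.137), the compared groups alone (0.122) and the replicate block (0.0923).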

How the results depend on the processing

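Direction and call of the members in H-KO against H-WT held under DESeq2 size factors, upper-quartile factors and the filter at 1 CPM in 3 samples. The count of members that fell was 4 with no filter, 7 with DESeq2, 5 with limma-voom, 7 with only the compared groups and 4 to 8 on leaving out 1 library. Of all tested genes 13.9%, 35.5%, 35.1%, 39.4% and 26.4% to 39.1% passed in these settings, in that order. With upper-quartile scaling, half-way values over all tested genes lay higher on the log2 scale. For H-KO against H-WT this median was 0.15, where TMM factors gave 0. For BH-KO against BH-WT it was 0.11, where TMM factors gave 0.03. Depth limits Serpina4-ps1 in the KO livers with 0 counts. These allow up to 0.301 and 0.292 CPM in H-KO replicates 1 and 3, and 0.264 CPM in BH-KO replicate 3. The cause of the changes below was not tested, except that the compared groups alone leave fewer libraries to estimate the spread.

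With no filter on low counts, the Serpina1 sum gave -1.715 in H-KO (adjusted p = 0.125) and 2.419 in BH-KO against H-KO (0.0634). Between the BH and H differences 0 members then passed (1.73% of genes did), and Serpina3m in BH-HF was at -0.022. With only the compared groups fitted, 0 members passed in BH-KO (8.67% of genes did), between the BH and H differences (3.62%) and between the WT groups (0.144%). The sum of BH-KO against H-KO was then 2.421 (0.131), and Serpina3m in BH-HF was at -0.002. DESeq2 passed 2 members between the WT groups, where 0.727% of genes passed. Serpina3m in BH-HF was at -0.006 with DESeq2 and with its size factors, and at -0.012 with upper-quartile factors, where its BH minus H difference was -0.046. With limma-voom 0 members passed between the BH and H differences, where 5.96% of genes did. Values that turned with limma-voom were Serpina1c in BH-KO (-0.032), Serpina3m in BH-HF (-0.06), Serpina1a and Serpina3m between BH and H (-0.416 and -0.376), Serpina1c between BH-HF and BH (0.195) and Serpina6 between the WT groups (0.056).

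Deviations of log2 CPM from the group means correlated at -0.17 to 0.04 between same-numbered KO and WT libraries. No pairing by replicate number was seen in this, which does not exclude it. With the replicate block, 6 members still passed in H-KO and 3 in BH-KO, none in BH-HF, and 0 between the BH and H differences, where Serpina3k was 3.685 (adjusted p = 0.0923). Of all tested genes 33.3%, 26.3%, 0% and 4.65% passed with it, in that order. Under the block Serpina3m turned in BH-HF (-0.003) and between BH and H (-0.123), and Serpina1c between BH-HF and BH (0.012).

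With BH-KO 1 left out together with H-WT 3 (chosen after seeing the data), 9 members passed in BH-KO, 3 between BH and H, 8 between BH-HF and BH, 2 between the WT groups, 5 between the KO groups and 1 between BH-HF-WT and BH-WT. Of all tested genes 43%, 6.13%, 23.1%, 0.43%, 16.7% and 14.7% passed in these contrasts, in that order. The Serpina1 sum was then -2.305 in BH-KO, -0.571 between BH and H, 2.129 between BH-HF and BH, and 0.872 between the KO groups. Values that turned were Serpina1c in BH-KO (-0.813), Serpina1a, Serpina1b, Serpina1c and Serpina3m between BH and H (-1.719, -0.927, -0.422 and -1.353), Serpina1c between BH-HF and BH (0.988), Serpina6 between the WT groups (0.552), and Serpina1a, Serpina1b and Serpina3m between the KO groups (-1.271, -0.35 and -0.91).

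Leaving out each of the 18 libraries in turn, the members passing ranged from 1 to 9 in BH-KO, 0 to 2 between BH and H, 0 to 7 between BH-HF and BH, 0 to 2 between the WT groups, 3 to 5 between the KO groups and 0 to 1 between BH-HF-WT and BH-WT. Of all genes 16.3% to 41% passed in BH-KO, 2.4% to 8.65% between BH and H, and 2.47% to 21.1% between BH-HF and BH. Between the WT groups 0.0488% to 0.395% did, between the KO groups 8.31% to 17.1%, and between BH-HF-WT and BH-WT 1.57% to 12.3%. The Serpina1 sum ranged in H-KO from -1.77 to -1.695, in BH-KO from -2.304 to -0.241, in BH-HF from -0.292 to 0.082, then from -0.572 to 1.492 between BH and H, 0.065 to 2.129 between BH-HF and BH, and 0.871 to 2.893 between the KO groups. The member share of the library, KO minus WT, ranged from -0.304 to 0.301 percentage points in BH-HF. Single values that turned were Serpina3n in H-KO (-0.244 to 0.289) and, in BH-KO, Serpina1c (-0.813 to 0.747) and Serpina1e (-2.382 to 0.093). In BH-HF they were Serpina1a (-0.073 to 0.04), Serpina1c (-0.03 to 0.318), Serpina1e (-0.53 to 0.265), Serpina3m (-0.42 to 0.187), Serpina3n (-0.433 to 0.808) and Serpina4-ps1 (-0.027 to 0.624). Between BH and H they were Serpina1a (-1.831 to 0.954), Serpina1b (-0.82 to 1.676), Serpina1c (-0.533 to 1.025) and Serpina3m (-1.232 to 0.454). Between BH-HF and BH they were Serpina1c (-0.571 to 0.988), Serpina1d (-0.049 to 1.521) and Serpina1e (-0.381 to 2.093). Between the KO groups they were Serpina1a (-1.271 to 1.513), Serpina1b (-0.35 to 2.145) and Serpina3m (-0.911 to 0.775), between the WT groups Serpina6 (-0.306 to 0.552), and between BH-HF-WT and BH-WT Serpina1c (-0.539 to 0.018) and Serpina3m (-0.416 to 0.016).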
